A study of Homo sapiens with 16 samples.

Results

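The collagen chain genes encode the polypeptides that wind in threes into the collagens, the main structural proteins of the extracellular matrix. They were taken as every entry of the count table whose symbol is COL, a number, A and a number, which gave 43 of the 19077 genes. All 43 passed the filter on low counts in every comparison, and all 43 symbols were the current ones.

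The libraries hold RNA precipitated together with the silencing complex of miRNAs, RISC, from HEK 293, a transformed human cell line derived from embryonic kidney. The RISC trap uses a dominant-negative GW182, a partner protein of RISC, to hold target mRNAs on the complex while it carries a microRNA (miRNA). The groups were mir1301-3p, mir1180-3p, mir1260a-5p and mir550-3p, mir1271-5p as well as mir3613-5p, with 2 libraries each, mir124-3p titled Illumina with 3 libraries, and mir124-3p titled Solid with 1 library. All 16 libraries share the cell line, the RISC trap, Trizol extraction and a SOLiD kit for total RNA by their labels, and no library without a miRNA was used here, so that each of the 6 miRNAs with 2 libraries was set against the other 5. The labels say neither how the cells received the miRNAs nor whether replicates were separate cultures, so the p-values measure the spread between these libraries, which may be technical. As a partial check of the label, the summed level of 9 genes typical of HEK 293 lay between 1218 and 2160 counts scaled to the size of the library (CPM) in all 16 libraries. VIM, at 406.3 to 1088 CPM, and NEFL, at 313.1 to 710.8 CPM, were the highest of the 9 in every library. Others were low, with KRT8 at 0.33 to 7.73 CPM and PAX2 at 0.89 to 6.74 CPM.

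Collagens are grouped by the structures they build. Fibrillar collagens form the banded fibrils of bone, skin, tendon and cartilage, and fibril-associated collagens with interrupted triple helices (FACITs) sit on their surface. Type IV collagens form the sheet of basement membranes, short-chain collagens form hexagonal networks, type VI forms beaded microfilaments, and type VII forms the anchoring fibrils of skin. Further members are transmembrane proteins or the multiplexins of basement membrane zones. A miRNA binds mRNAs largely through its seed, bases 2 to 8 counted from its 5′ end.

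The mature miRNAs are shown because the libraries are grouped by miRNA. Of the 7 labelled miRNAs, 6 matched a mature sequence of RefSeq (build GRCh38.p14), and these 6 had 6 distinct seeds. The sequence of mir124-3p, which both of its groups share, was not matched. The seed is in capitals. RefSeq names hsa-miR-1260a without an arm, and the sequence for mir550-3p is that of hsa-miR-550a-3p, which is named in the sample descriptions and has 2 loci, of which one is given.
mir1180-3p, chr17:19344513-19344534, minus strand: uUUCCGGCucgcgugggugugu
mir1260a-5p, chr14:77266231-77266248, plus strand: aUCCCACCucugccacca
mir1271-5p, chr5:176367960-176367981, plus strand: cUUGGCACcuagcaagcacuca
mir1301-3p, chr2:25328651-25328674, minus strand: uUGCAGCUgccugggagugacuuc
mir3613-5p, chr13:49996465-49996486, minus strand: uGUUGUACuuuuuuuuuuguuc
mir550-3p, chr7:29680748-29680769, minus strand: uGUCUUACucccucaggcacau

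Total counts lay between 7612758 and 26527365 per library, with 7612758 and 8533543 in the mir1301-3p libraries. CPM were scaled by the trimmed mean of M values (TMM) over the 16 libraries. They are not divided by transcript length, so levels are compared between libraries for a gene and not between genes. In these bulk libraries, the share of cells with an mRNA, its amount per cell and its recovery with RISC cannot be told apart.

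Collagen mRNAs were low but were counted in every library outside the Illumina group. The mean level of a member over the 12 libraries of the 6 miRNAs lay between 1.45 CPM (COL9A2) and 25.3 CPM (COL9A3), with a median over the members of 5.05 CPM. No member was at 0 in the 13 libraries of the 6 miRNAs and of mir124-3p Solid. In the Illumina libraries of mir124-3p, 7 or 8 members were at 0 in each library, as were 3305 to 3687 of the 19077 genes. Summed over the 43 members, the level was 372.3 and 478.8 CPM in the mir1301-3p libraries, against a lowest of 159.8, a median of 214.7 and a highest of 265.8 CPM in the 10 libraries of the other 5 miRNAs. Both mir1301-3p sums lay above all 10 others. The sum was 82.7, 93.2 and 98.8 CPM in the Illumina libraries of mir124-3p, against 198.4 CPM in the Solid library.

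**Figure D1:**
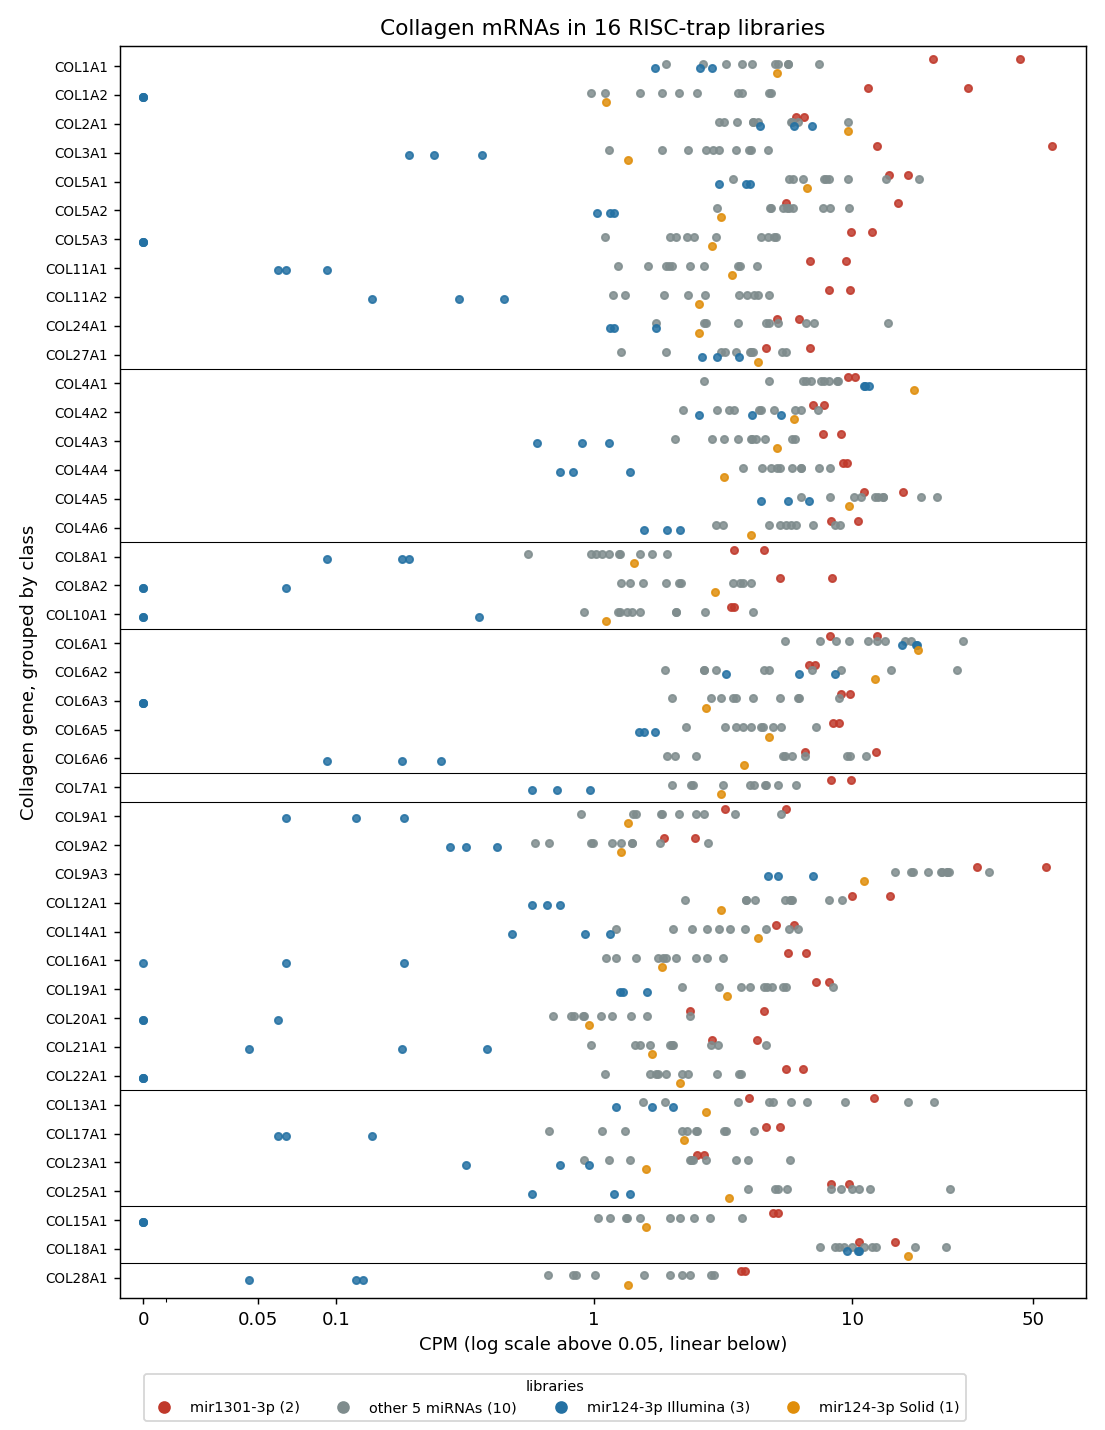
Level of each of the 43 collagen genes (rows, parted by class) in CPM on the horizontal axis, 1 point per library, on a log scale above 0.05 CPM. The mir1301-3p points lie to the right of all 10 points of the other 5 miRNAs for 20 members, and all 3 mir124-3p Illumina points lie left of the Solid point for all 43 members.

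In mir1301-3p libraries, 17 of the 43 collagen mRNAs rose and 0 fell relative to the other 5 miRNAs (edgeR's quasi-likelihood test; a call is an adjusted p, by Benjamini and Hochberg, of less than 0.05 among the 17658 genes tested). Of all genes tested, 11.5% were called higher and 4.39% lower, so that the 39.5% of members called higher stood above the background. At an unadjusted p under 0.05 there were 22 members, all higher, against 36.5% of all genes in either direction. DESeq2 called 18 members higher and 0 lower, among 3036 genes called in either direction, against 2815 by edgeR. Of these 18, 15 were among the 17: COL17A1 and COL28A1 were not called by DESeq2, and COL4A3, COL6A3 and COL6A5 were. The log2 fold change was above 0 for 42 of the 43 members, against 49.3% of all genes, and its median was 0.96 for the members and -0.02 for all genes. Both mir1301-3p libraries lay above the other 10 for 20 members, which is 46.5%, against 13.5% of all genes. COL6A1 was the member below 0, at -0.25 ± 0.47 (SE).

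These counts depended on single libraries. Without replicate 1 of mir1301-3p, 3 members were called, among 114 genes in all, and without replicate 2 there were 2, among 142 in all. Without replicate 1 of mir1180-3p, a reference library, there were 11. A further reference was mir550-3p alone, the other group whose sample descriptions are named by miRNA rather than by a sample number. Against it, mir1301-3p had 9 members called higher, 7 of them among the 17, with 1707 genes called in either direction. Upper-quartile scaling, which moved the median of all genes by 0.40, gave 26. It also moved the split of all calls, with 4216 of 4438 called higher, against 2039 of 2815 with TMM.

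Of the 11 fibrillar collagens 6 rose, and their median log2 fold change of 1.66 was the highest of the classes. Their summed level was 104.4 and 214.4 CPM in mir1301-3p libraries, against 36.6 to 59.1 CPM in the other 10. COL1A1, the major chain of type I collagen of bone, skin and tendon, was at 20.5 and 44.7 CPM in mir1301-3p libraries, against a lowest of 1.90, a median of 4.56 and a highest of 7.44 CPM in the other 10. The groups did not overlap, and the log2 fold change was 2.95 ± 0.37 (SE; adjusted p = 0.000229). COL1A2, its partner chain, was at 11.5 and 28.2 CPM, against a lowest of 0.972, a median of 2.32 and a highest of 4.84 CPM, with a log2 fold change of 3.10 ± 0.37 (adjusted p = 0.000149). COL3A1, the type III chain of skin and blood vessels, was at 12.5 and 59.3 CPM, against a lowest of 1.14, a median of 2.97 and a highest of 4.69 CPM, and rose by 3.66 ± 0.43 (adjusted p = 0.000149). The lower mir1301-3p library was above all 10 others for each of the 3 genes, and replicate 2 held more of each. Without replicate 2, COL1A1 and COL1A2 stayed called, and COL3A1 was at 2.02 and not called (adjusted p = 0.0806). Without replicate 1 all 3 stayed called.

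**Figure D2:**
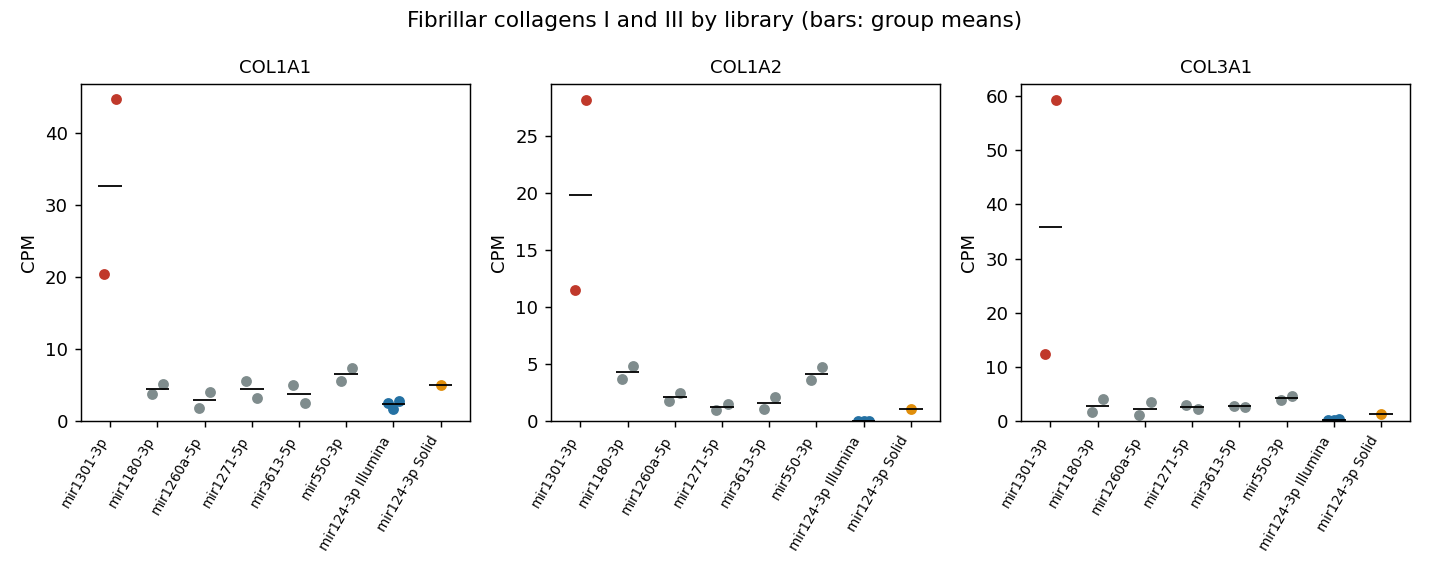
Level in CPM (vertical axis, linear, from 0) of COL1A1, COL1A2 and COL3A1 in each library, with 1 point per library and a bar at the group mean. For each gene both mir1301-3p points lie above all 10 of the other 5 miRNAs, and they lie far apart for COL3A1, at 12.5 and 59.3 CPM; COL1A2 is at 0 in all 3 Illumina libraries.

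Types V and XI are the minor fibrillar collagens, which are known to limit the diameter of the fibrils. COL5A3, a chain of type V collagen, was at 9.84 and 11.9 CPM in mir1301-3p libraries, against 1.11, 2.70 and 5.06 CPM as the lowest, median and highest of the other 10, and rose by 1.91 ± 0.37 (adjusted p = 0.00865). Its partner chains overlapped between the groups and did not pass the test. COL5A1 was at 13.8 and 16.5 CPM, against 3.46 to 18.1 CPM (0.89 ± 0.41), and COL5A2 at 5.54 and 15.0 CPM, against 3.00 to 9.73 CPM (0.84 ± 0.41). Both type XI chains, known from cartilage, rose without overlap. COL11A1 was at 6.87 and 9.45 CPM, against 1.24, 2.18 and 4.27 CPM (1.78 ± 0.38, adjusted p = 0.0128), and COL11A2 at 8.10 and 9.80 CPM, against 1.18, 3.18 and 4.74 CPM (1.66 ± 0.42, adjusted p = 0.0204). COL2A1, the main fibrillar chain of cartilage, was at 6.05 and 6.51 CPM, against 3.04 to 9.59 CPM, and did not pass the test (0.40 ± 0.41). COL24A1 (0.20 ± 0.53) and COL27A1 (0.73 ± 0.46) did not pass it either. Without either mir1301-3p replicate, the calls of COL5A3, COL11A1 and COL11A2 ended, with log2 fold changes between 1.44 and 2.09.

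Of the 6 basement membrane chains, 0 were called, with a class median of 0.75. At an unadjusted p under 0.05 there was 1, COL4A3, and by DESeq2 also 1, COL4A3. COL4A3, a chain of the kidney glomerulus, was at 7.69 and 9.001 CPM in mir1301-3p libraries, against 2.06, 4.07 and 6.01 CPM, a difference without overlap that just missed the threshold (1.11 ± 0.37, adjusted p = 0.0518). Its partner COL4A4 was at 9.23 and 9.54 CPM, against 3.77 to 8.22 CPM (0.74 ± 0.36). For the X-linked pair, COL4A5 was at 11.1 and 15.8 CPM, against 6.34 to 21.2 CPM (0.12 ± 0.39), and COL4A6 at 8.30 and 10.5 CPM, against 2.98 to 8.98 CPM (0.76 ± 0.39).

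The ubiquitous type IV chains COL4A1 and COL4A2 are transcribed from a shared start region in opposite directions, and that region is shown because the table holds both genes. The 126 bases between the first transcribed bases of COL4A1 and COL4A2 in RefSeq lie at chr13:110307158-110307283 of GRCh38.p14, shown on the plus strand. They have 1 CCAAT motif on that strand, in capitals, and 0 on the other.
COL4A1 and COL4A2: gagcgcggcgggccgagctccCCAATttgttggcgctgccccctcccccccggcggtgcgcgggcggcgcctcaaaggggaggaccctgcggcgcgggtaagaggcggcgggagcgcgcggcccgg
Of 35116 RefSeq promoters, 21.1% hold CCAAT on either strand over the same length. COL4A1 was at 10.3 and 9.63 CPM in mir1301-3p libraries, against 2.66, 7.23 and 8.79 CPM in the other 10, and COL4A2 at 7.07 and 7.75 CPM, against 2.21, 4.39 and 7.39 CPM. The first did not overlap and the second did, and neither passed the test (0.58 ± 0.39 and 0.76 ± 0.42). In single libraries the pair did not move together throughout, for in mir550-3p replicate 1 COL4A1 had its lowest level of the 12 libraries, 2.66 CPM, while COL4A2 was at 4.36 CPM.

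Of the 3 short-chain collagens 2 rose, with a class median of 1.497. COL8A1, a network chain of vessel walls and of the cornea, was at 3.49 and 4.55 CPM in mir1301-3p libraries, against 0.552, 1.196 and 1.91 CPM (1.77 ± 0.39, adjusted p = 0.0143). COL8A2, its partner, was at 5.23 and 8.38 CPM, against 1.28, 2.15 and 4.05 CPM (1.497 ± 0.449, adjusted p = 0.0356). Neither gene overlapped between the groups. COL10A1, the chain of hypertrophic cartilage, was at 3.39 and 3.49 CPM, against 0.911 to 4.11 CPM, and was not called (0.96 ± 0.46).

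Among the beaded filament chains of type VI collagen, 0 of 5 were called with mir1301-3p, and the class median was 0.83. There were 2 at an unadjusted p under 0.05, COL6A3 and COL6A5, and DESeq2 called both. COL6A3 was at 9.02 and 9.80 CPM, against 2.01, 3.83 and 8.89 CPM (1.15 ± 0.39, adjusted p = 0.0541), and COL6A5 at 8.41 and 8.91 CPM, against 2.28, 4.23 and 7.24 CPM (1.06 ± 0.37, adjusted p = 0.0584). Both lay above all 10 libraries by a small margin. COL6A1 was at 8.20 and 12.5 CPM, against 5.50 to 26.8 CPM, and COL6A6 at 6.56 and 12.3 CPM, against 1.92 to 11.3 CPM (0.83 ± 0.47).

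COL7A1, the chain of the fibrils that anchor the epidermis, was at 8.30 and 9.89 CPM in mir1301-3p libraries, against 2.01, 4.09 and 6.07 CPM, and rose by 1.32 ± 0.38 (adjusted p = 0.03). The libraries did not overlap. COL28A1, a chain related to the beaded filament collagens, was at 3.69 and 3.83 CPM, against 0.665, 1.76 and 2.93 CPM, and rose by 1.30 ± 0.41 (adjusted p = 0.0415), again without overlap. Its call ended with DESeq2 (adjusted p = 0.0568) and without any 1 of 9 of the 12 libraries, at log2 fold changes between 1.19 and 1.38.

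Of the 10 FACITs 5 rose, and the class median was 1.01. COL16A1 was at 5.64 and 6.60 CPM in mir1301-3p libraries, against 1.11, 1.87 and 3.15 CPM (1.67 ± 0.41, adjusted p = 0.0189). COL22A1, found at junctions between tissues such as muscle and tendon, was at 5.53 and 6.46 CPM, against 1.11, 2.04 and 3.71 CPM (1.46 ± 0.38, adjusted p = 0.0221). COL12A1, a component of dense connective tissue, was at 9.94 and 14.0 CPM, against 2.25, 5.62 and 9.11 CPM (1.23 ± 0.38, adjusted p = 0.0401). These 3 genes did not overlap between the groups. COL20A1 was at 2.36 and 4.55 CPM, against 0.690, 0.988 and 2.36 CPM (1.64 ± 0.44, adjusted p = 0.0253), and its lower library lay just under the highest of the 10. COL9A3, a chain of the type IX collagen of cartilage, was at 30.4 and 56.1 CPM, against 14.6, 22.1 and 33.9 CPM, and rose by 1.02 ± 0.28 (adjusted p = 0.0275) with an overlap. Here replicate 1 held more than replicate 2, the reverse of COL3A1. Its partner chains COL9A1 (0.997 ± 0.443) and COL9A2 (0.80 ± 0.47) did not pass the test, nor did COL14A1, COL19A1 and COL21A1, between 0.72 and 0.79.

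Of the 4 transmembrane collagens 1 rose, and the class median of 0.32 was the lowest of the classes. COL17A1, the collagen of the hemidesmosomes that fix the epidermis to its base, was at 4.61 and 5.26 CPM in mir1301-3p libraries, against 0.668, 2.38 and 4.16 CPM (1.25 ± 0.41, adjusted p = 0.0486). Its call ended in most alternatives, DESeq2 among them (adjusted p = 0.0524). COL13A1 (0.55 ± 0.42), COL23A1 (0.09 ± 0.50) and COL25A1 (0.09 ± 0.42) overlapped and were not called. Of the multiplexins, COL15A1 was at 4.92 and 5.17 CPM, against 1.04, 1.73 and 3.75 CPM, and rose by 1.49 ± 0.37 (adjusted p = 0.0201) without overlap. COL18A1, from which endostatin is released, was at 10.6 and 14.7 CPM, against 7.53 to 23.1 CPM, and did not pass the test (0.12 ± 0.38).

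**Figure D3:**
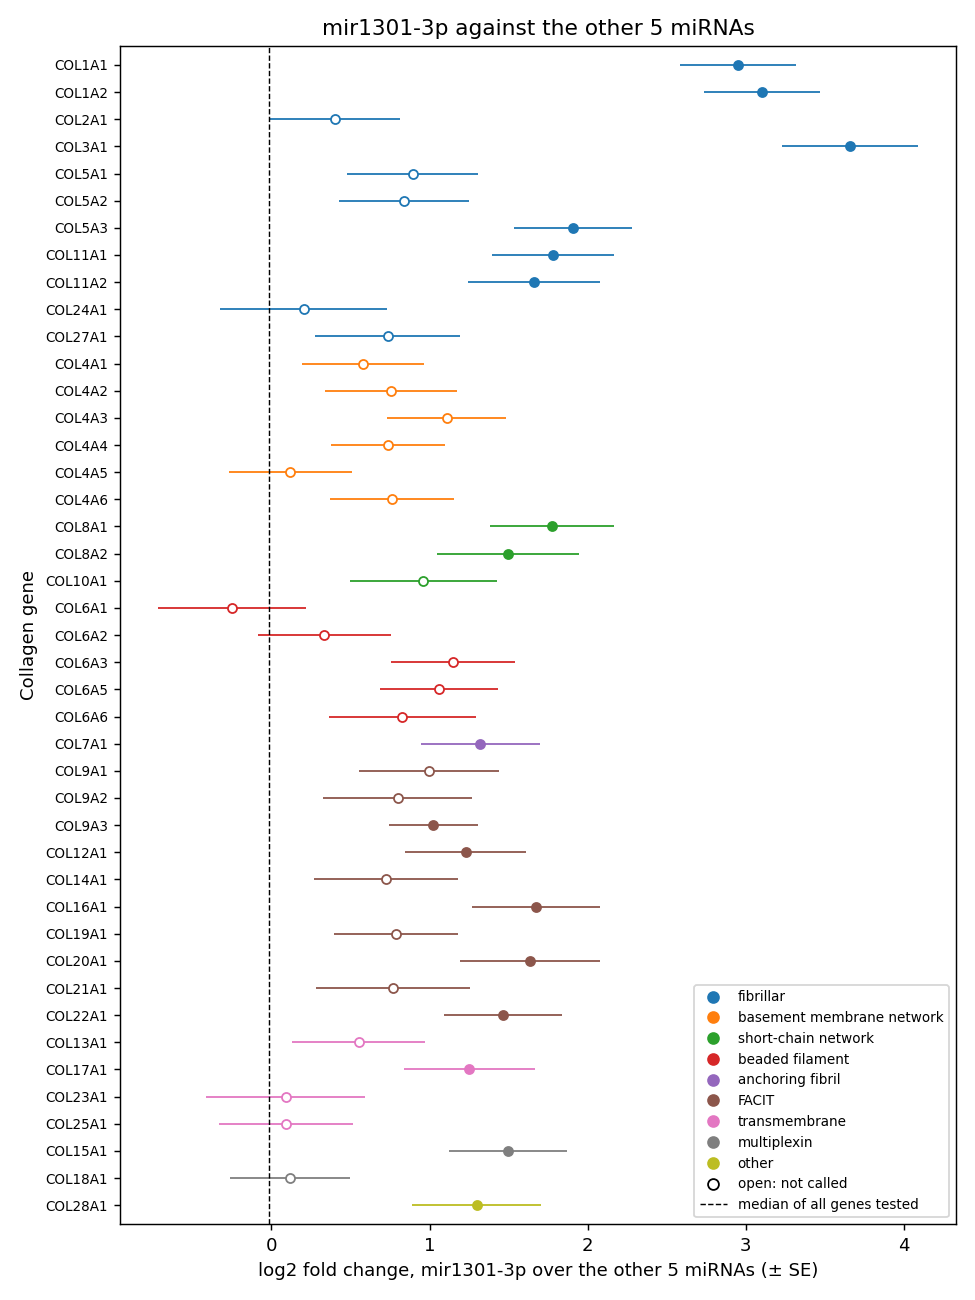
Log2 fold change of each collagen gene, mir1301-3p over the other 5 miRNAs, with its standard error as a bar (horizontal axis), coloured by class; filled points were called and open points were not, and the dashed line is the median of all genes tested, -0.02. COL3A1, COL1A2 and COL1A1 stand apart at 3.66, 3.10 and 2.95, while the other 14 called members lie between 1.02 and 1.91.

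The mir1301-3p libraries also differed from the rest in genes that were at 0 or low in the Illumina libraries of mir124-3p. There were 1587 tested genes that had 0 counts in all 3 Illumina libraries of mir124-3p. Their median level was 1.85 and 1.78 CPM in the mir1301-3p libraries, against 0.414 to 1.24 CPM in the other 10, and 38.2% of them were called higher with mir1301-3p. Parted at a mean of 1 CPM in the Illumina libraries, a value chosen after seeing the data, 15 of the 25 collagen genes under it (60%) and 2 of the 18 at or above it (11.1%) were called higher, with median log2 fold changes of 1.30 and 0.66. The 2 above it were COL1A1 and COL9A3. Among all genes whose mean CPM over the 12 libraries lay in the range of the members, the shares were 33.6% and 3.61%, and the medians 1.11 and -0.06. The part of this difference in the collagen result was not tested.

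**Figure D4:**
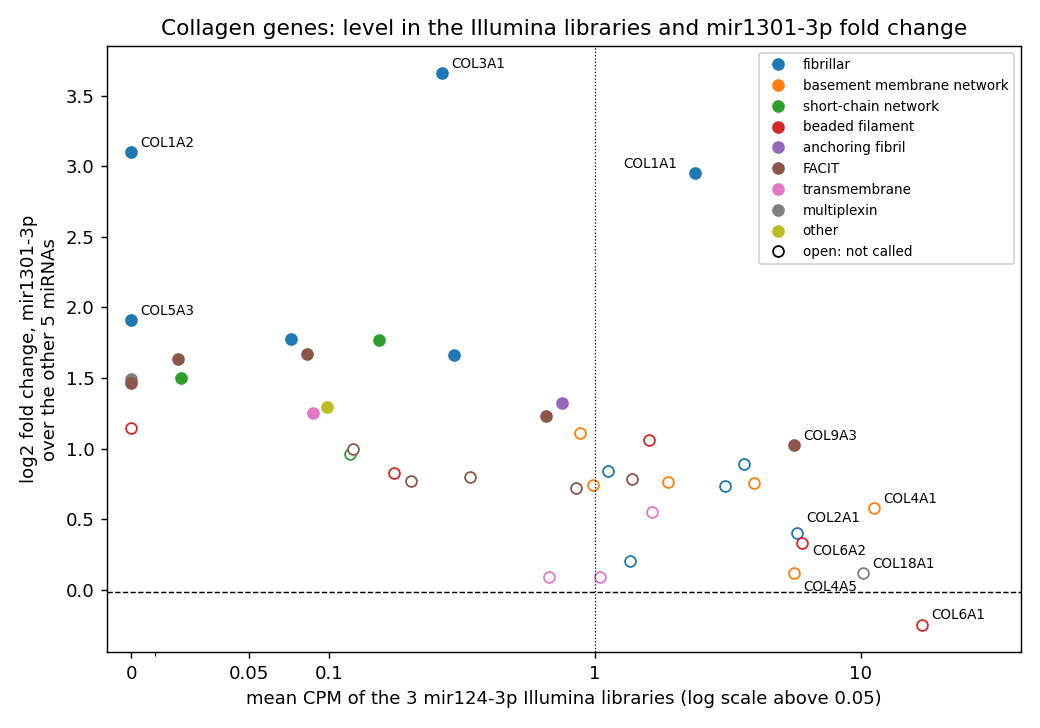
Mean level of each collagen gene in the 3 mir124-3p Illumina libraries in CPM (horizontal axis, log scale above 0.05) against its log2 fold change with mir1301-3p (vertical axis), coloured by class, filled where called; the dotted line marks 1 CPM and the dashed line the median of all genes. Left of 1 CPM 15 of 25 members are filled, and right of it COL1A1 and COL9A3.

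Genes that serve the collagens were taken as 4 lists by role, to be read against the 11.5% of all genes called higher and 4.39% called lower with mir1301-3p. Of 24 genes for folding, modification and export 2 rose and 3 fell, with mir1301-3p, and the list's median was -0.24. SERPINH1, the collagen-specific chaperone HSP47, was at 23.6 and 18.2 CPM, against 4.16 to 10.3 CPM in the other 10, and rose by 1.68 ± 0.35 (adjusted p = 0.0109). P4HA3, a catalytic subunit of prolyl 4-hydroxylase, rose by 1.44 ± 0.46 (adjusted p = 0.0442). P4HB, the shared subunit of that enzyme, was at 37.1 and 84.0 CPM, against 91.0 to 261.2 CPM, and fell by 1.48 ± 0.36 (adjusted p = 0.0192). P4HA1, another catalytic subunit, fell by 1.38 ± 0.39 (adjusted p = 0.0299), and PPIB, a prolyl isomerase of collagen folding, by 1.10 ± 0.30 (adjusted p = 0.027). The 5 genes lay outside the range of the other 10 libraries. Of 15 genes for procollagen processing and crosslinking 2 rose, the N-proteinase ADAMTS14 by 1.88 ± 0.37 (adjusted p = 0.00865) and the lysyl oxidase LOXL4 by 1.21 ± 0.39 (adjusted p = 0.045). Of 10 collagen receptors 2 rose, the integrin chain ITGA10 (1.30 ± 0.39) and the inhibitory receptor LAIR1 (1.42 ± 0.45). Of 23 other matrix proteins 4 rose, the elastin gene ELN (1.92 ± 0.45), SPARC (1.41 ± 0.36), BGN (1.30 ± 0.40) and THBS1 (1.18 ± 0.39). In the last 3 lists edgeR called no gene lower, and 4, 5 and 9 genes had an unadjusted p under 0.05, a rule that 36.5% of all genes met. Of the genes called in these 3 lists, LOXL4, LAIR1 and SPARC overlapped with the other 10 libraries, and the rest lay above them.

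Some markers of other cell types moved with the collagens in the mir1301-3p libraries, where 11.5% of all genes, and 38.2% of those at 0 in the Illumina libraries, were called higher. Of 14 markers of fibroblasts and mesenchyme 5 rose (LUM, DPT, DCN, PDGFRB and FAP, by 1.51 to 2.40), and the summed level was 82.5 and 93.2 CPM, against 70.9 to 97.3 CPM in the other 10, an overlap. Of 7 endothelial markers 5 rose (TEK, KDR, PECAM1, CDH5 and EMCN, by 1.31 to 1.92), and their sum was 30.8 and 35.1 CPM, against 5.25 to 23.1 CPM, without overlap. Of the 5 blood markers tested PTPRC rose, of the 7 of neurons and glia SNAP25, and of the 5 epithelial ones KRT5. The summed blood markers were at 16.4 and 26.0 CPM, against 10.1 to 25.8 CPM, those of neurons and glia at 52.9 and 90.3 CPM, against 59.4 to 107.1 CPM, and the epithelial ones at 10.6 and 23.3 CPM, against 3.99 to 13.8 CPM. The haemoglobin genes HBG1 and HBG2 were at 0 in 14 and 13 of the 16 libraries, among them 1 and 2 of the mir1301-3p libraries. In the mir1301-3p libraries, HBB was at 0.5125 and 0.3565 CPM and HBA1 at 0.205 and 0.267 CPM. No fibroblast or endothelial marker was at 0 there. The 9 HEK 293 genes summed to 1218 and 1348 CPM, against 1342 to 2160 CPM, and edgeR and DESeq2 called 0 of them, with 1 at an unadjusted p under 0.05. The part of these markers in the collagen result was not tested.

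With mir1180-3p, COL6A2, a chain of the beaded filaments, rose, and 0 collagen genes fell. The 1 member called higher is 2.33% of the 43, close to the 1.92% of all genes called higher. Of all genes, 0.153% were called lower. COL6A2 was at 25.4 and 14.1 CPM in mir1180-3p libraries, against 1.88 to 9.06 CPM in the other 10, without overlap, and rose by 2.02 ± 0.37 (adjusted p = 0.00465). The other chains of type VI collagen were not called with mir1180-3p. COL6A1 was at 16.9 and 8.66 CPM there, against 5.50 to 26.8 CPM, and COL6A3 at 6.17 and 8.89 CPM, against 2.01 to 9.80 CPM. COL23A1, a transmembrane collagen, was at 5.76 and 3.94 CPM, above all 10 others, but was not called (1.06 ± 0.46, adjusted p = 0.319). Both mir1180-3p libraries lay above the other 10 for 2 members, which is 4.65%, close to the 3.68% of all genes. Without replicate 1 of mir1180-3p the call of COL6A2 ended (1.49, adjusted p = 0.307). Of the other matrix proteins, FBLN2, a fibulin of basement membranes and elastic fibres, was called with mir1180-3p as well, at 10.8 and 9.45 CPM against 0.739 to 3.73 CPM (2.17 ± 0.38, adjusted p = 0.00306).

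COL13A1, a transmembrane collagen known from the neuromuscular junction, was called with both mir1260a-5p and mir550-3p, in opposite directions. It was at 16.4 and 20.7 CPM in mir1260a-5p libraries, the highest of the 12, against 1.55 to 12.1 CPM in the other 10, and rose by 1.93 ± 0.38 (adjusted p = 0.0418). The background there was 0.215% called higher and 0% lower, and COL13A1 was 1 of 38 genes called. It was at 1.55 and 1.88 CPM in mir550-3p libraries, the lowest of the 12, against 3.60 to 20.7 CPM in the other 10, and fell by 2.22 ± 0.53 (adjusted p = 0.0432), with 1.2% of all genes called higher and 0.306% lower. Each comparison holds the other group's libraries in its reference. The call with mir1260a-5p ended with upper-quartile scaling, with a reference of the same naming style, and without any 1 of 9 of the 12 libraries, at log2 fold changes between 1.68 and 2.07. That with mir550-3p ended without mir1301-3p in the reference (-2.20, adjusted p = 0.0668) and without any 1 of 7 libraries, between -2.304 and -1.999. COL25A1, a transmembrane collagen of neurons, was at 23.8 and 8.24 CPM with mir1260a-5p (1.04 ± 0.39, adjusted p = 0.724) and at 5.02 and 3.96 CPM with mir550-3p (-1.16 ± 0.47, adjusted p = 0.226), and was called in neither.

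**Figure D5:**
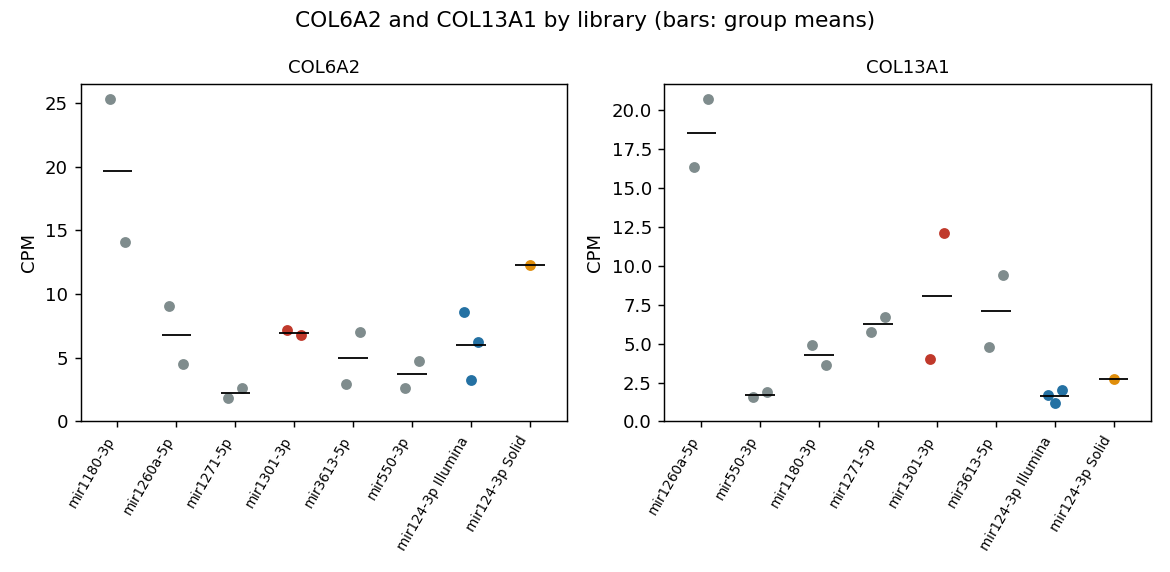
Level in CPM (vertical axis, linear, from 0) of COL6A2 and COL13A1 in each library, with 1 point per library and a bar at the group mean. COL6A2 stands highest in both mir1180-3p libraries, at 25.4 and 14.1 CPM, and COL13A1 is highest in both mir1260a-5p and lowest in both mir550-3p libraries among the 12 of the 6 miRNAs.

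With mir1271-5p and mir3613-5p, edgeR called 0 collagen genes. Of all genes, 0.606% were called higher and 0% lower with mir1271-5p, and 0.0906% higher and 0% lower with mir3613-5p. At an unadjusted p under 0.05 there were 2 members with mir1271-5p, COL1A2 and COL6A2, both lower, against 9.34% of all genes, and DESeq2 called these 2. COL6A2 was at 1.883 and 2.657 CPM in mir1271-5p libraries, just under the 2.66 to 25.4 CPM of the other 10 (-1.59 ± 0.50, adjusted p = 0.262). For mir3613-5p there were 6 at an unadjusted p under 0.05, all lower, against 14.1% of all genes, and DESeq2 called 0. Replicate 1 of mir1271-5p had the lowest level of the 12 libraries for 15 of the 43 members. Replicate 2 of mir1301-3p had the highest for 24 and replicate 1 of mir1301-3p for 4. The share of all genes with these extremes was not counted. For the 7944 genes in the members' range of mean CPM, the same libraries held the extremes of the median. It was lowest of the 12 in mir1271-5p replicate 1, at 4.89 CPM, and highest in mir1301-3p replicate 2, at 6.77 CPM.

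Among the 6 miRNAs, with no group chosen as the one tested, 6 collagen genes differed, which is 14% of the members against 5.72% of all genes. They were COL1A1 (adjusted p = 0.00239), COL1A2 (adjusted p = 0.00114), COL3A1 (adjusted p = 0.0014), COL5A3 (adjusted p = 0.0348), COL6A2 (adjusted p = 0.0264) and COL13A1 (adjusted p = 0.0222). With mir1301-3p left out of the comparison, COL6A2 and COL13A1 were the 2 called. Without replicate 2 of mir1301-3p there were also 2, and without replicate 2 of mir1180-3p or either replicate of mir550-3p there were 3. DESeq2 called 14 and upper-quartile scaling 11.

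In the mir124-3p Solid library, edgeR called 0 of the 43 collagen genes relative to the 6 miRNAs, while 7.31% of all genes were called higher and 1.58% lower. With upper-quartile scaling 997 of 1661 calls over all genes were higher, against 1326 of 1613 with TMM. The group is 1 library, assumed to vary like the others. At an unadjusted p under 0.05 there were 5 members, against 24.1% of all genes, and DESeq2 called 1, COL9A3, lower. COL9A3 was at 11.1 CPM in the Solid library, below the 14.6 to 56.1 CPM of the 12 (-1.23 ± 0.47, adjusted p = 0.114). COL4A1 was at 17.3 CPM, above the 2.66 to 10.3 CPM of the 12, and was not called (1.14 ± 0.48, adjusted p = 0.15). Of the lists by role, 3 of 24 genes for folding, modification and export, 1 of 15 for processing and 1 of 10 receptors were called higher there, beside the 7.31% of all genes, with a spread taken from the other groups. PLOD3, a lysyl hydroxylase and glycosyltransferase of collagen, was at 128.6 CPM in the Solid library, against 6.10 to 15.8 CPM in the 12 (3.43 ± 0.34, adjusted p = 1.38e-05), and was at 167.1, 88.3 and 181.5 CPM in the Illumina libraries of the same miRNA. SERPINH1 (1.957 ± 0.423), the prolyl 4-hydroxylase subunit P4HA2 (1.77 ± 0.43), the procollagen C-proteinase enhancer PCOLCE (1.84 ± 0.47) and the collagen receptor DDR1 (1.57 ± 0.44) rose as well.

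Between the 2 platforms named for mir124-3p, 23 of the 43 collagen genes were lower in the Illumina libraries and 0 were higher, which is 53.5% of the members, against 19.5% of all genes lower and 2.37% higher. All 43 members were lower in every Illumina library than in the Solid library, as were 64.8% of all genes. The median log2 fold change was -2.01 for the members and -0.39 for all genes. With upper-quartile scaling or DESeq2 size factors, which moved the median of all genes by 0.12 and 0.33, 1 member was above 0, and 20 and 19 were called. By class, 4 of 11 fibrillar, 2 of 6 basement membrane, 3 of 3 short-chain, 3 of 5 beaded filament and 7 of 10 FACIT chains fell, with COL7A1, COL15A1, COL17A1 and COL28A1.

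Of these, 5 members had 0 counts in all 3 Illumina libraries, as did 1963 of the 18271 genes tested. Against a limit of 3 counts per library, 0.170 CPM on average, COL5A3 (2.87 CPM in the Solid library) was at least 16.9-fold lower in the Illumina libraries, COL6A3 (2.71 CPM) at least 15.9-fold, COL22A1 (2.15 CPM) at least 12.7-fold, COL15A1 (1.59 CPM) at least 9.38-fold and COL1A2 (1.11 CPM) at least 6.56-fold. These limits cover the counting error of the Illumina libraries alone. They take the level in the Solid library as exact, though it rests on 14 (COL1A2) to 36 (COL5A3) counts. With the 5 at their limits the median of the members was again -2.01. COL8A2 had 0, 1 and 0 counts in the Illumina libraries, against 37 in the Solid library, and COL20A1 had 1, 0 and 0, against 12. COL11A1 had 1, 1 and 2 counts, against 43, COL17A1 had 1, 1 and 3, against 28, COL6A6 had 3, 4 and 2, against 48, and COL16A1 had 0, 1 and 4, against 23. All 6 were called lower, and no fold is given for them because so few counts do not fix its size. Among called members with more counts, COL4A3 was at 0.599 to 1.14 CPM in the Illumina libraries, against 5.10 CPM in the Solid library (-2.53 ± 0.56, adjusted p = 0.00205), COL7A1 at 0.575 to 0.967 CPM, against 3.11 CPM (-2.01 ± 0.59, adjusted p = 0.016), and COL6A5 at 1.498 to 1.72 CPM, against 4.78 CPM (-1.57 ± 0.54, adjusted p = 0.0405).

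COL6A1, COL4A1, COL18A1, COL6A2, COL2A1, COL9A3 and COL4A5 had the highest mean levels of the members in the Illumina libraries, and all were not called. The values of 4 of them follow. COL6A1 was at 17.8, 15.6 and 17.6 CPM in the Illumina libraries, against 18.0 CPM in the Solid library (-0.07 ± 0.60). COL18A1 was at 10.5, 9.58 and 10.6 CPM, against 16.5 CPM (-0.68 ± 0.50), and COL4A1 at 11.1, 11.6 and 11.2 CPM, against 17.3 CPM (-0.61 ± 0.51). COL2A1 was at 7.01, 4.41 and 5.94 CPM, against 9.63 CPM (-0.73 ± 0.56). None of these 4 passed the test, which with 1 Solid library does not show that they were equal. Of the 17 members called higher with mir1301-3p, 14 (82.4%) were called lower in the Illumina libraries, which is 60.9% of the 23, and over all genes tested in both comparisons the shares were 60.8% and 36.6%. The exceptions were COL1A1, COL3A1 and COL9A3.

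In the same comparison, edgeR and DESeq2 called 0 of the 24 genes for folding, modification and export, with 2 at an unadjusted p under 0.05. Further, 2 of the 15 for processing and crosslinking fell (ADAMTS14 and LOXL3), 2 of the 10 receptors fell (ITGA11 and ITGA10), and 9 of the 23 other matrix proteins fell. The integrin chain ITGA1 rose, at 33.8 to 39.3 CPM in the Illumina libraries, against 4.14 CPM in the Solid library (3.14 ± 0.79, adjusted p = 0.00576). All 7 endothelial and 7 of the 14 fibroblast markers fell too. The endothelial markers summed to between 0.180 and 0.319 CPM in the Illumina libraries, against 9.87 CPM in the Solid library, with TEK, CDH5 and EMCN at 0 in all 3, and the fibroblast markers to between 91.8 and 94.8 CPM, against 102.2 CPM. Their part in the collagen result was not tested.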

How the data were processed

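The deposited values are raw counts per gene for 16 libraries, made by the authors; the submitters' processing notes name TopHat2 and hg19. The sources used here do not name the counting tool, its strand setting or the sequencer used for the 6 miRNAs. Counts of 43 collagen genes were read from the table of 19077 entries, of which 18560 matched a RefSeq gene by accession. Genes were kept by filterByExpr, scaled by TMM and tested with edgeR 4.0.16 in R 4.3.3 (robust quasi-likelihood test), and called at an adjusted p (Benjamini-Hochberg) of less than 0.05 among all genes tested. Each of the 6 miRNAs was compared with the other 5, averaged, in a fit of their 12 libraries. The Solid library was added to that fit for its own comparison, and all 16 libraries entered the comparison of Illumina with Solid. Alternatives were DESeq2 1.42.0, other scalings, no filter, other references and leaving out each library. The rule names every called member, the 2 members of each class with the highest mean CPM, the partner chains of called members, members at 0, and up to 3 called genes of each list by adjusted p; other named members and list genes were chosen after their values were seen. The members and lists were chosen with earlier results of these data known. On simulated counts for 17658 genes, the mir1301-3p test recovered 70% of 4-fold and 9% of 2-fold changes, and 7.06% of its calls were false. Of 15 same-numbered pairs of libraries, 6 had deviations that correlated over 0.1, up to 0.364. The numbers were therefore not taken to pair the samples. In the 6 miRNAs with 2 libraries, no replicates agreed within sampling noise, and the 3 Illumina libraries were not checked for this.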

Additional observations from a re-analysis of the deposited data

How the results depend on the processing

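Of 544 values of called members under alternatives, 435 kept their direction and call, 109 lost the call and 0 reversed. The count with mir1301-3p was 26 with upper-quartile scaling and 9 against mir550-3p alone. That with mir1260a-5p was 0 under both upper-quartile scaling and a reference of the same naming style. With mir550-3p it was 2 by DESeq2 and 0 without mir1301-3p in the reference. Against mir1301-3p alone it was 9, all lower, among 1707 genes called, which is the contrast of mir1301-3p with mir550-3p with its sign turned. DESeq2 called 2 members lower with mir1271-5p, 1 lower in the Solid library, and 14 among the 6 miRNAs, where upper-quartile scaling gave 11 and leaving out mir1301-3p gave 2. Leaving out 1 library gave 0 to 1 members for mir1180-3p, 0 to 1 for mir1260a-5p, 0 to 0 for mir1271-5p and mir3613-5p, 2 to 21 for mir1301-3p, 0 to 2 for mir550-3p, 2 to 6 among the 6 miRNAs, 0 to 0 for the Solid library and 18 to 21 for Illumina against Solid. Fewer libraries entered these fits; otherwise the cause was not tested. With the replicate number as a block, 20 members were called with mir1301-3p and 7 among the 6 miRNAs, and the other counts were the same; over all genes mir1301-3p had 3738 calls. Not every same-numbered pair deviated together (15 pairs, correlation of deviations -0.141 to 0.364, 6 over 0.1). Of 224 class sums under alternatives, 106 moved past their limit, which was 1 SD of the group or, for the 1 Solid library, counting error. The alternatives included sums without the highest member of the class, which are lower by design. Over all genes, mir1301-3p had 2815 calls, against 4438 with upper-quartile scaling and 114 to 4509 with 1 library left out; DESeq2 called 693 with mir1180-3p (edgeR 366), 71 with mir1260a-5p (38), 166 with mir1271-5p (107), 148 with mir3613-5p (16), 879 with mir550-3p (266), 3434 among the 6 miRNAs (1010) and 2689 in the Solid library (1613). Low counts limit small changes, and the self-test recovered few 2-fold ones.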
